A study of Mus musculus with 4 samples.

Results

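Surface and naive-cell maturation markers of CD4+ thymocytes were examined in mice without and with the microRNA gene Mir142. The 10 genes are Cd24a, Itm2a, Dapl1, Ly6d, Ly6a, Ms4a4b, Ms4a4c, Ms4a6b, Cd44 and Cd52, of 19938 genes with a value. They were chosen from earlier results of these same arrays, Dapl1 for genotype differences that ran in opposite directions at the 2 stages, so every value below is a description and carries no test. Each gene was read from its single-gene probe set, and 9 of the 10 had one. Ly6a had no such probe set in the annotation used here and is given no value. All 9 measured genes were above background on every array, background being log2 5.87, the 95th percentile of 1190 odorant and vomeronasal receptor genes.

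CD4+ CD8- thymocytes were sorted from C57BL/6n mice aged 8 weeks into 4 groups with 1 array each (Affymetrix Gene 1.0ST, a probe array covering whole transcripts). The groups are miR-142-/- Qa2+ (CD69-), miR-142-/- Qa2- (CD69+), WT Qa2+ (CD69-) and WT Qa2- (CD69+), WT being miR-142+/+. Per the labels, each miR-142-/- sample came from a pool of 4 mice (1 female and 3 male). Each WT sample came from a pool of 5 mice (3 female and 2 male). For miR-142-/- Qa2- cells the description field says Qa2+ instead, and the title and sorting entry, both giving Qa2-, were followed. With 1 pool and 1 array per group, there is no replicate spread, no error and no p-value for any difference, and precision is limited by how few arrays there are.

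A thymocyte that has passed positive selection on the CD4 lineage first carries CD69 and heat stable antigen (the product of Cd24a), and loses both while it gains Qa2 and the homing and egress receptors of a naive T cell. CD44, the receptor for the matrix polysaccharide hyaluronan, is low on naive T cells and high on memory and innate-like T cells. Several of the proteins, among them CD24, Ly-6D, Sca-1 (the product of Ly6a) and CD52, are small surface molecules held in the membrane by a glycosylphosphatidylinositol (GPI) anchor, whereas the MS4A proteins cross the membrane several times. miR-142, which cells of the blood lineages carry at high level, is processed into the mature forms below, as annotated by RefSeq (GRCm38.p6, plus strand), shown because they are what the deletion removes, with the seed (bases 2 to 8) in capitals.
mmu-miR-142a-5p: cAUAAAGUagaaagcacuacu
mmu-miR-142a-3p: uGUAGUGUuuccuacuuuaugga
The 5p form lies at chr11:87756867-87756887 and the 3p form at chr11:87756903-87756925.

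The arrays fit their genotype and CD69 labels at Mir142 and Cd69, with an exception in the labelled sexes. Mir142 read log2 4.88 and 5.29 in miR-142-/- Qa2+ and Qa2- cells, below background, against 9.41 and 10.11 in WT Qa2+ and Qa2- cells. Cd69 was lower in Qa2+ than in Qa2- cells, by log2 differences of -0.96 in miR-142-/- and -0.77 in WT. The cells were sorted as CD8-, yet Cd8a (7.25 to 7.53) and Cd8b1 (8.75 to 9.98) were above background on every array. Whether these transcripts came from CD8+ cells was not tested. No Qa2 gene was among the checks. Other cell types were read from marker lists: of CD8 T cell markers, 5 of 6 were above background on average, and Cd8b1 and Cd7 were lower in miR-142-/- at both stages while Eomes was higher in Qa2- cells. Of 10 stromal markers 7 were above background, with Krt8 higher (Qa2+) and Epcam lower (Qa2-) in miR-142-/-, and of 3 measured gamma-delta and 3 measured erythroid markers 0 were 1.5-fold apart in any comparison. Of 9 CD4 T cell markers listed, all 7 with a value were above background on average, and 5 of 7 measured B cell markers (Blnk, Cd79a, Ebf1, Ms4a1 and Pax5) were below it. Xist, the noncoding RNA that silences an X chromosome, was below background on both miR-142-/- arrays (4.83 and 5.06) and at 12.14 and 12.67 on the WT arrays, and the Y-linked Eif2s3y read 10.58 and 10.55 against 4.39 and 4.29, so the labelled pools of both sexes were not seen and each genotype difference also compares arrays that differ in sex-linked transcripts. Array medians over all probe sets lay between 6.61 and 6.74. In sorted bulk RNA, fewer cells with a transcript and less transcript per cell cannot be told apart.

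All 9 genes had the same sign of stage difference in both genotypes. Cd24a and Itm2a were lower at the Qa2+ stage in both genotypes, Dapl1, Ly6d, Ms4a4b, Ms4a4c and Ms4a6b were higher in both, although Dapl1 in miR-142-/- (1.27-fold) and Ms4a4b in WT (1.32-fold) were less than 1.5-fold apart. Cd44 was lower and Cd52 higher, each by less than 1.5-fold in both genotypes. In miR-142-/-, 4 of 9 genes were at least 1.5-fold higher in Qa2+ cells (2.65% of the 12581 genes above background were) and 2 were at least 1.5-fold lower (3.64%). In WT the counts were also 4 (2.69%) and 2 (3.70%), but Dapl1 stood among the 4 in WT and Ms4a4b in its place in miR-142-/-. At least 2-fold apart were 4 genes in miR-142-/- (1.53% of all) and 5 in WT (1.26%). Because the genes were picked with stage results known, these counts beside the background say nothing further about the set.

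Between the genotypes, Ly6d was higher and Ms4a4c and Cd44 lower in miR-142-/- at both stages by at least 1.5-fold. In Qa2+ cells 2 of 9 genes were at least 1.5-fold higher in miR-142-/- (4.55% of all genes above background), namely Itm2a and Ly6d, and 3 were lower (4.88%), namely Dapl1, Ms4a4c and Cd44. In Qa2- cells 2 were higher (3.10%), Dapl1 and Ly6d, and 4 were lower (3.74%), Ms4a4b, Ms4a4c, Ms4a6b and Cd44. At least 2-fold apart were Itm2a and Ms4a4c in Qa2+ cells (3.27% of all) and Dapl1, Ms4a4c and Cd44 in Qa2- cells (2.33%). The medians of the 9 genotype differences were -0.35 in Qa2+ and -0.41 in Qa2- cells, beside 0.00 for all genes above background in each. For scale, receptor genes had genotype differences with standard deviations of 0.18 (Qa2+) and 0.15 (Qa2-), and stage differences with 0.21 (miR-142-/-) and 0.22 (WT), which is the scatter of dim probe sets, not of animals.

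**Figure D1:**
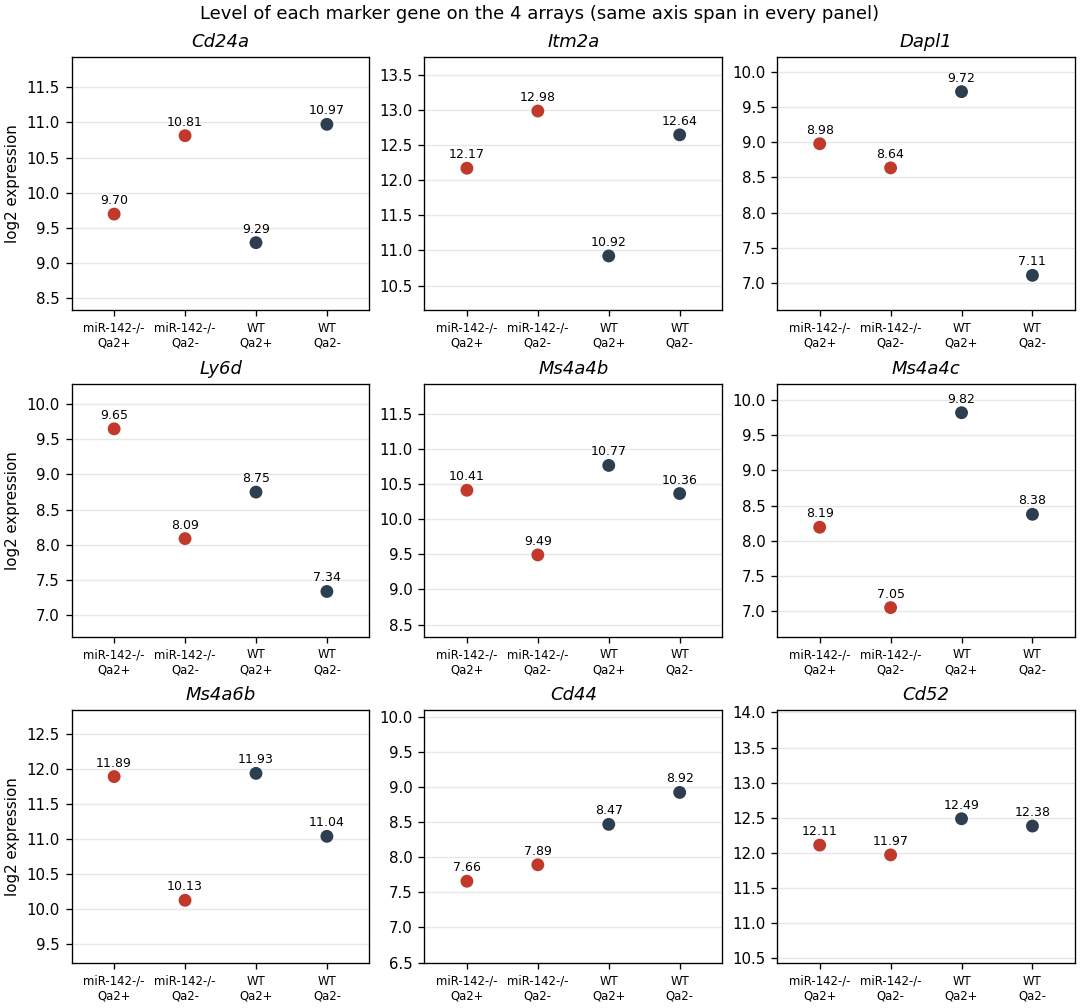
Level of each of the 9 measured marker genes on the 4 arrays (vertical axes, log2 expression, each spanning the same range), with 1 point per array, miR-142-/- in red and WT in dark blue. Dapl1 spans 7.11 to 9.72 in WT and 8.64 to 8.98 in miR-142-/-, Ms4a4c is lower on each miR-142-/- array than on the WT array of the same stage, and Cd52 stays between 11.97 and 12.49.

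Cd24a encodes the heat stable antigen, a GPI-anchored glycoprotein carried by immature thymocytes and lost as they mature. It read 9.70 and 10.81 in miR-142-/- Qa2+ and Qa2- cells, and 9.29 and 10.97 in WT Qa2+ and Qa2- cells. It was thus low on both Qa2+ arrays, lowest in WT. Qa2+ cells had 2.17-fold less than Qa2- cells in miR-142-/- and 3.21-fold less in WT. The miR-142-/- minus WT difference was 0.41 in Qa2+ and -0.16 in Qa2- cells, both under 1.5-fold.

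Itm2a encodes an integral membrane protein induced around positive selection. It read 12.17 and 12.98 in miR-142-/- Qa2+ and Qa2- cells, and 10.92 and 12.64 in WT Qa2+ and Qa2- cells. The WT Qa2+ array stood apart as the lowest of the 4. Qa2+ cells had 1.76-fold less than Qa2- cells in miR-142-/- and 3.30-fold less in WT, so the log2 step in miR-142-/- was 47.2% of that in WT. In Qa2+ cells Itm2a was 2.38-fold higher in miR-142-/- than in WT, a difference matched or exceeded in that direction by 0.906% of genes above background, and in Qa2- cells it was 1.26-fold higher. Itm2a is on the X chromosome. Of 340 X-linked genes above background, Xist left out, miR-142-/- was higher by 1.5-fold or more for 18 and lower for 16 at the Qa2+ stage (median 0.03), and for 7 and 13 at the Qa2- stage (median -0.01). Thus 10% and 5.88% of these genes were at least 1.5-fold apart, beside 9.43% and 6.84% of all genes above background. The part of the sex-linked difference between the pools in the Itm2a result was not tested.

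Other genes of the newly selected stage were read from a separate list, drawn up with earlier results known. Of 18 such genes, all above background, 10 were at least 1.5-fold lower and 0 higher in Qa2+ cells of miR-142-/- (median -0.75, against -0.06 for all genes), and 13 were lower and 1 higher in WT (median -0.82, against -0.06), beside 3.64% and 3.70% of all genes lower. The 1 higher gene was Cd83, a surface immunoglobulin-family protein, at 0.63. Between genotypes the list had medians of -0.02 in Qa2+ and 0.11 in Qa2- cells. Ccr9, a homing receptor of thymocytes, came closest to the picture of Itm2a, being 1.58 higher in miR-142-/- than in WT in Qa2+ cells and 0.05 higher in Qa2- cells. Ccr4, a receptor that draws selected thymocytes to the medulla, went the other way, with differences of -0.86 and -0.30, and the receptor-induced nuclear receptor gene Nr4a3 differed by -0.92 and 0.03. Lower expression of selection-stage genes in Qa2+ cells was thus common to both genotypes, whereas the genotype differences within Qa2+ cells had both signs.

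Markers of double-positive thymocytes, the preceding stage, which also carry CD24, did not follow Cd24a. Of 11 measured, 10 were above background on average (Rag2 was below), and 4 in miR-142-/- and 5 in WT were at least 1.5-fold higher in Qa2+ cells, with 0 lower in either, beside 2.65% and 2.69% of all genes higher. The list medians were 0.20 and 0.32, against -0.06 for all genes in each. Rag1, a recombinase gene, was higher by 1.90 and 2.72, and Dntt, the terminal transferase gene, by 1.60 and 0.99. The summed linear signal of the list was 10992 and 10498 in miR-142-/- Qa2+ and Qa2- cells, and 11052 and 11037 in WT Qa2+ and Qa2- cells. The list includes Cd4, which read log2 12.36 to 12.64 on the 4 arrays and was its brightest gene. The sum is thus weighted to a gene that all the sorted cells carry and does not measure the dimmer genes such as Rag1. The part of such transcripts in the stage differences was not tested.

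**Figure D2:**
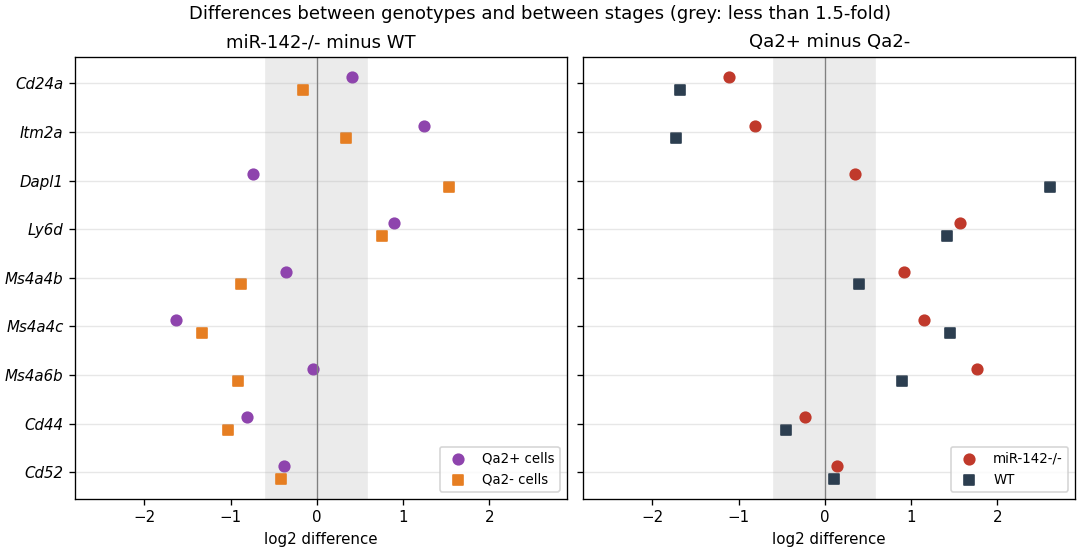
Log2 differences of the 9 marker genes, miR-142-/- minus WT on the left (circles Qa2+ cells, squares Qa2- cells) and Qa2+ minus Qa2- on the right (circles miR-142-/-, squares WT), the grey band marking less than 1.5-fold. Dapl1 has genotype differences on either side of the band (-0.74 and 1.53), while the stage differences of all 9 genes have the same sign in both genotypes.

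Dapl1 encodes a small protein related to death-associated protein 1, and its transcript is known from naive T cells. It read 8.98 and 8.64 in miR-142-/- Qa2+ and Qa2- cells, and 9.72 and 7.11 in WT Qa2+ and Qa2- cells. Both miR-142-/- arrays lay between the WT arrays. Qa2+ cells exceeded Qa2- cells by 1.27-fold in miR-142-/- and by 6.12-fold in WT, so the log2 step in miR-142-/- was 13.2% of that in WT. In WT, 2 genes above background, Dapl1 counted, had a stage increase of that size.

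Seen by genotype, miR-142-/- had 1.67-fold less Dapl1 than WT at the Qa2+ stage and 2.89-fold more at the Qa2- stage. The Qa2- level of miR-142-/- lay 58.5% of the way from the WT Qa2- to the WT Qa2+ level on the log2 scale. The stage difference in miR-142-/- minus that in WT was -2.27, and 2 of 12581 genes, Dapl1 counted, were as low in this measure. Dapl1 was picked for this opposition, so its size is a description. At least 1.5-fold in opposite directions, the only other gene above background was Cybrd1, a ferric reductase gene singled out here after its values were seen. Cybrd1 read 6.34 and 7.48 in miR-142-/- Qa2+ and Qa2- cells, and 6.92 and 6.84 in WT Qa2+ and Qa2- cells, so miR-142-/- minus WT was -0.59 at the Qa2+ and 0.64 at the Qa2- stage.

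The genes closest to Dapl1 in profile were sought among 11954 named genes above background, by the Euclidean distance between log2 profiles over the 4 arrays, each centred on its own mean. The nearest was Igfbp4, an insulin-like growth factor binding protein gene, at a distance of 0.59. Igfbp4 read 11.33 and 10.95 in miR-142-/- Qa2+ and Qa2- cells, and 11.76 and 9.96 in WT Qa2+ and Qa2- cells, which also places both miR-142-/- arrays between the WT arrays. Arpp21, an RNA-binding phosphoprotein gene of immature thymocytes, followed at 0.89, then n-R5s136, a 5S ribosomal RNA gene (1.00), the cytokine gene Clcf1 (1.00) and Klhdc1, a kelch-domain gene (1.02). In Qa2+ cells miR-142-/- was lower than WT for Igfbp4 (-0.43) but higher for Arpp21 (0.48), n-R5s136 (0.09), Clcf1 (0.44) and Klhdc1 (0.17), so of the 5 nearest genes Igfbp4 had the opposition of signs that Dapl1 showed, and with 4 points a short distance is a weak likeness.

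**Figure D3:**
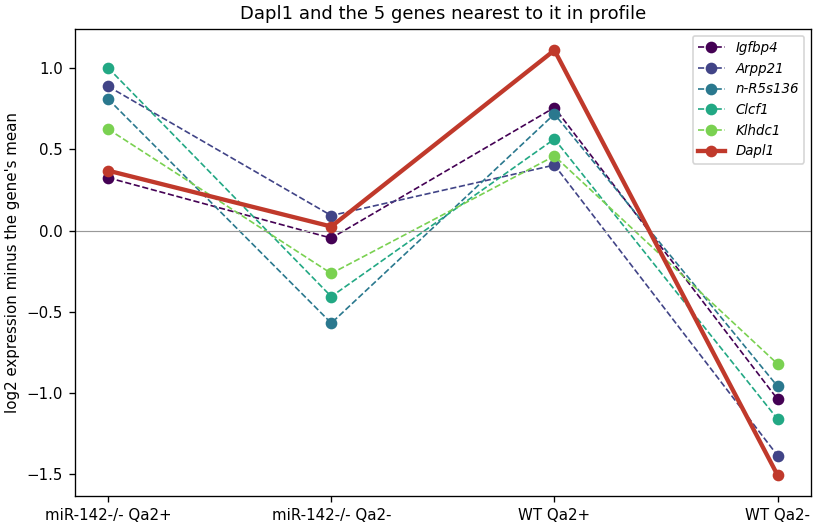
Dapl1 (thick red line) and the 5 genes nearest to it in profile (dashed lines), plotted as log2 expression minus each gene's mean (vertical axis) over the 4 arrays (horizontal axis, lines only join points of 1 gene). Igfbp4 and Dapl1 are highest in WT Qa2+ cells, and Arpp21, n-R5s136, Clcf1 and Klhdc1 are highest in miR-142-/- Qa2+ cells.

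Ly6d encodes a GPI-anchored protein of the Ly-6 family, known from lymphoid progenitors on the way to B cells. It read 9.65 and 8.09 in miR-142-/- Qa2+ and Qa2- cells, and 8.75 and 7.34 in WT Qa2+ and Qa2- cells. Each Qa2+ array was above both Qa2- arrays, and at each stage miR-142-/- was above WT. The stage step was 2.95-fold in miR-142-/- and 2.67-fold in WT, and the genotype step 1.87-fold in Qa2+ and 1.68-fold in Qa2- cells, so the 2 differences added up with little left over (0.15 on the log2 scale). Ly6d was the only one of the 9 genes at least 1.5-fold higher in miR-142-/- at both stages.

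Relatives of Ly6d gave no such common picture. Of 24 other Ly-6 superfamily genes listed, 21 had a value and 13 were above background on average. In Qa2+ cells 2 of these, Ly6i (0.66) and Lynx1 (0.64), were at least 1.5-fold higher and Lypd6b (-0.70) lower in miR-142-/-, and in Qa2- cells 0 were higher and Lypd6b was lower (-0.83). Of all genes above background, 4.55% were higher and 4.88% lower in miR-142-/- Qa2+ cells, and 3.10% and 3.74% in Qa2- cells. Between stages Ly6i and Lypd6b were higher in Qa2+ cells of miR-142-/- by 1.03 and 0.85, and Lypd6b in WT by 0.73. At least 1.5-fold higher in Qa2+ cells were 2.65% of all genes above background in miR-142-/- and 2.69% in WT. Ly6i was below background in Qa2- cells of both genotypes (5.66 and 5.47), so its differences there may be understated. Summed linear signal of the 7 measured B cell markers was 381 and 353 in miR-142-/- Qa2+ and Qa2- cells, and 434 and 390 in WT Qa2+ and Qa2- cells. Of these markers, Cd79b and Vpreb3 were above background on average, and the part of B cells in the Ly6d result was not tested.

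Ms4a4c, Ms4a4b and Ms4a6b encode membrane proteins of the MS4A family, found on T cells, and are neighbours on chromosome 19 with Ms4a6c and Gm8369 between Ms4a4b and Ms4a6b. Their promoters are shown because the 3 genes were higher in Qa2+ cells of both genotypes while differing between genotypes, and the Dapl1 promoter is shown beside them as that of the gene with the largest stage step in WT among the 9. Sequences are from RefSeq (GRCm38.p6), 250 bases before to 50 after an annotated start, and read 5′ to 3′ on the plus strand. They lie at chr19:11407411-11407710 (Ms4a4c), chr19:11443308-11443607 (Ms4a4b), chr19:11518309-11518608 (Ms4a6b) and chr2:59484403-59484702 (Dapl1). Capitals mark every match, on either strand, to the letters CACCC of Kruppel-like factors, GTAAACA of FoxO factors, GAAANNGAA of interferon regulatory factors or TGTGGT of RUNX factors. No 2 matches of different motifs overlapped in these windows.
Ms4a4c: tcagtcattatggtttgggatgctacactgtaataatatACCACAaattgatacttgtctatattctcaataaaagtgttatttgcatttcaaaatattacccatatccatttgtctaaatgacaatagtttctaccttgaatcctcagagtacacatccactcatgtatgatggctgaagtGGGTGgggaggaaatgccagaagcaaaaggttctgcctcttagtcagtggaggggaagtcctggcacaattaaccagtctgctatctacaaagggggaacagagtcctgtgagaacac
Ms4a4b: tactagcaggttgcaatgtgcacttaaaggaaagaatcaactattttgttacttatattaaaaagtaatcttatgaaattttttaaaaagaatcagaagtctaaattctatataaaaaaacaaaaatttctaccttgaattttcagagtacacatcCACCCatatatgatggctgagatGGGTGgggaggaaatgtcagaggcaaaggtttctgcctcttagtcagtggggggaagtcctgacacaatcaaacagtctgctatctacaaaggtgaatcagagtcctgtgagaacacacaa
Ms4a6b: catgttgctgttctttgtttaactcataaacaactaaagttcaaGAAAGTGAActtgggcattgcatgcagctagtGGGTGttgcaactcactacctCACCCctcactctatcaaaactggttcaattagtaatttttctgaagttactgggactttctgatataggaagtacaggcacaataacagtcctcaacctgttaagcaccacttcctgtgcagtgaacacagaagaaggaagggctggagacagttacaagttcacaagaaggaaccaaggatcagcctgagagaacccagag
Dapl1: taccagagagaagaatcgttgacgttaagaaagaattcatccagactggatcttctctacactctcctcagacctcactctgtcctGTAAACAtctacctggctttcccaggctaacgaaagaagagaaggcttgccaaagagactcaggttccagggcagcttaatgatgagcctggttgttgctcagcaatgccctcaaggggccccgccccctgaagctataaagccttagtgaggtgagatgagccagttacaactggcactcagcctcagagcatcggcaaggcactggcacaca

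The CACCC letters occurred 1 time in the Ms4a4c window and 2 times each in those of Ms4a4b and Ms4a6b, and 57.5% of 32851 promoters of this length hold them. The GAAANNGAA letters were found in the Ms4a6b window at position -206 from the start (8.56% of promoters), the TGTGGT letters in the Ms4a4c window (16.8%) and the GTAAACA letters in the Dapl1 window at position -164 (3.65%). A match is a description of letters, not a bound site. In local alignment the Ms4a4c and Ms4a4b windows were 89.3% identical over 178 aligned columns, beginning at position -128 of Ms4a4c, while the best alignment of Ms4a4c with Ms4a6b covered 26 columns. The transcripts were not aligned, so whether short array probes separate these genes fully was not tested.

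Ms4a4c read 8.19 and 7.05 in miR-142-/- Qa2+ and Qa2- cells, and 9.82 and 8.38 in WT Qa2+ and Qa2- cells. The miR-142-/- Qa2+ level was about that of WT Qa2- cells. Qa2+ cells exceeded Qa2- cells by 2.21-fold in miR-142-/- and by 2.72-fold in WT. At the Qa2+ stage miR-142-/- had 3.09-fold less Ms4a4c than WT and at the Qa2- stage 2.51-fold less, differences matched or exceeded in that direction by 0.636% and 0.739% of genes above background.

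Ms4a4b read 10.41 and 9.49 in miR-142-/- Qa2+ and Qa2- cells, and 10.77 and 10.36 in WT Qa2+ and Qa2- cells. Only the miR-142-/- Qa2- array stood apart, as the lowest. The stage step was 1.89-fold in miR-142-/- and 1.32-fold in WT, and miR-142-/- had 1.28-fold less than WT at the Qa2+ and 1.83-fold less at the Qa2- stage. Its promoter neighbour in sequence, Ms4a4c, thus differed between genotypes at both stages and Ms4a4b by at least 1.5-fold in Qa2- cells alone.

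Ms4a6b read 11.89 and 10.13 in miR-142-/- Qa2+ and Qa2- cells, and 11.93 and 11.04 in WT Qa2+ and Qa2- cells. The Qa2+ arrays of the genotypes were 1.03-fold apart, whereas in Qa2- cells miR-142-/- was 1.88-fold lower. The stage step was therefore larger in miR-142-/-, 3.39-fold against 1.86-fold in WT, or 197% of the WT step on the log2 scale. In miR-142-/-, 0.111% of genes above background had a stage increase of that size.

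Among the other MS4A genes, 14 of 15 listed had a value and 6 were above background on average. Ms4a6c had the largest stage differences of these 6, reading 10.16 and 8.23 in miR-142-/- Qa2+ and Qa2- cells and 9.79 and 8.54 in WT Qa2+ and Qa2- cells. It was thus 1.93 higher in Qa2+ cells of miR-142-/- and 1.24 higher in Qa2+ cells of WT, and between genotypes it differed by 0.37 and -0.32 in Qa2+ and Qa2- cells, so it had the stage pattern of Ms4a6b without a 1.5-fold genotype difference. Ms4a4a read 6.54 in miR-142-/- Qa2+ cells and between 5.70 and 5.90 on the other arrays, at about the background threshold. Ms4a1, the B cell gene for CD20, and Ms4a7, of macrophages, were below background on average. Of 12 myeloid and dendritic cell markers, 5 were above background on average, with median stage differences of -0.18 in miR-142-/- and 0.29 in WT. Lyz2, the lysozyme gene, was the 1 of them at least 1.5-fold higher in Qa2+ cells (0.69 in miR-142-/- and 1.61 in WT), and it read 5.87 in WT Qa2- cells, at the background threshold. The list's summed linear signal was 785 and 758 in miR-142-/- Qa2+ and Qa2- cells, and 982 and 759 in WT Qa2+ and Qa2- cells. The part of such cells in the MS4A and Dapl1 results was not tested.

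**Figure D4:**
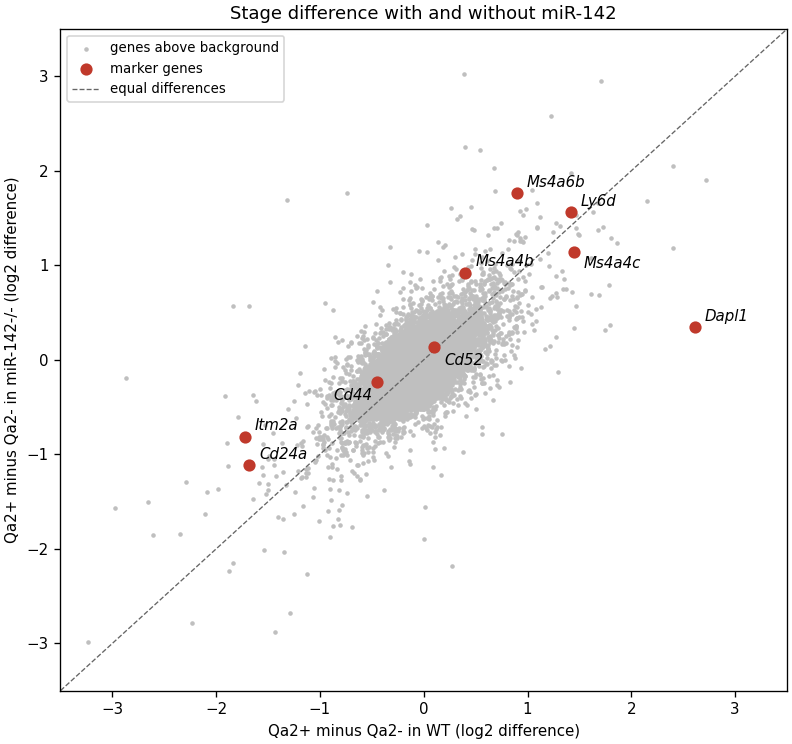
Stage difference (Qa2+ minus Qa2-, log2) in WT on the horizontal axis and in miR-142-/- on the vertical axis for the 12581 genes above background (grey) and the 9 marker genes (red), the dashed line marking equal differences. Dapl1 (2.61 in WT, 0.34 in miR-142-/-) lies far below the line, Ms4a6b (0.90 and 1.76) above it, and Ly6d and Cd52 close to it.

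The mature-stage programme outside these genes was read from another list of 20 genes, of which 18 had a value and 17 were above background on average. In Qa2+ cells of miR-142-/- 8 were at least 1.5-fold higher and 1, the interferon-gamma receptor chain gene Ifngr2 (-0.60), was lower (median 0.54, against -0.06 for all genes). In WT 9 were higher and 0 lower (median 0.68, against -0.06), and of all genes 2.65% in miR-142-/- and 2.69% in WT were higher. S1pr1, the receptor that guides egress from the thymus, differed between stages by 2.95 in miR-142-/- and by 1.71 in WT, so like Ms4a6b it had the larger step in miR-142-/-. Its genotype differences were -0.46 in Qa2+ and -1.70 in Qa2- cells, beside -0.05 and -0.91 for Ms4a6b. Klf2, a Kruppel-like factor that drives S1pr1, was higher in Qa2+ cells by 0.95 in miR-142-/- and by 1.33 in WT, and miR-142-/- minus WT was -0.87 (Qa2+) and -0.48 (Qa2-). The list medians between genotypes were -0.10 and 0.05 in Qa2+ and Qa2- cells.

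Ms4a4c and Ly6a are also known as interferon-inducible, and the interferon response list was set beside Ms4a4c for that reason. Of its 35 genes, 30 had a value and all of those were above background. Between genotypes, 13 were at least 1.5-fold lower and 0 higher in miR-142-/- Qa2+ cells (median -0.56, against 0.00 for all genes). In Qa2- cells 9 were lower and 1, the guanylate-binding protein gene Gbp3 (0.67), was higher (median -0.37), while 4.88% of all genes were lower at the Qa2+ and 3.74% at the Qa2- stage. Ifit3 had the pattern of Ms4a4c, reading 9.67 and 8.01 in miR-142-/- Qa2+ and Qa2- cells and 11.12 and 9.45 in WT Qa2+ and Qa2- cells. Between stages 2 were at least 1.5-fold higher in Qa2+ cells of miR-142-/- (2.65% of all genes) and 8 in WT (2.69%), with 0 lower in either.

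Cd44 read 7.66 and 7.89 in miR-142-/- Qa2+ and Qa2- cells, and 8.47 and 8.92 in WT Qa2+ and Qa2- cells. Both miR-142-/- arrays were below both WT arrays. At the Qa2+ stage miR-142-/- had 1.75-fold less Cd44 than WT and at the Qa2- stage 2.04-fold less, while the stages lay 1.18-fold apart in miR-142-/- and 1.37-fold apart in WT, lower in Qa2+ cells. It was thus a gene that separated the genotypes and not, by 1.5-fold, the stages.

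Genes of effector and memory T cells had both signs between genotypes, more of them lower in miR-142-/-. Of 25 listed, 24 had a value and 21 were above background on average, and miR-142-/- was lower by 1.5-fold or more for 11 of these at the Qa2+ stage and 12 at the Qa2- stage (medians -0.59 and -0.88), where 4.88% and 3.74% of all genes above background were lower. Above 0 were 4 of the 21 at each stage. Gzmb, Klrd1 and S100a4 were below background on both miR-142-/- arrays and passed through WT. These counts thus include genes that the filter let in where they are high. The higher ones were Id2, a transcriptional inhibitor (0.82), in Qa2+ cells and Lgals3, a galectin (0.85), in Qa2- cells. Cxcr6, which encodes the receptor for CXCL16, differed by -1.30 and -2.36, and Nkg7, a cytotoxic granule membrane gene, by -0.45 and -3.47, at the Qa2+ and Qa2- stages. The summed linear signal of the list was 20671 and 21772 in miR-142-/- Qa2+ and Qa2- cells, and 26729 and 29659 in WT Qa2+ and Qa2- cells. Of 8 innate-like T cell markers, which share Il2rb, Cxcr6 and Tbx21 with the effector-memory list, 5 were above background on average and miR-142-/- was lower by 1.5-fold or more for these 5 at both stages. Of the 5, Fasl passed the filter on the mean through WT alone, reading 5.42 and 5.74 in miR-142-/- Qa2+ and Qa2- cells against 6.32 and 6.87 in WT, so the count is no support for a shift of the list. The 5 include Zbtb16, their defining transcription factor gene (-1.73 and -0.68). The summed linear signal of all 8 innate-like markers, those below background included, was 1064 and 1136 in miR-142-/- Qa2+ and Qa2- cells. In WT Qa2+ and Qa2- cells it was 2616 and 2727. Il2rb, also of the effector-memory list, was the brightest of the 8 on every array. Of 8 regulatory T cell markers, 3 in Qa2+ and 2 in Qa2- cells were lower in miR-142-/-, among them Foxp3, their defining transcription factor gene (-1.66 and -1.19), and 1 was higher at each stage, the receptor gene Gpr83 (1.27 and 1.03). The list median was -0.34 in Qa2+ and 0.09 in Qa2- cells. The part of effector, innate-like or regulatory cells in the Cd44 difference was not tested.

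Partners of CD44 that were above background on average gave little in common with it. Of 16 genes for hyaluronan turnover, membrane linkers and other CD44 partners, 13 had a value and 8 were above background on average. These 8 had medians of 0.08 and 0.10 between genotypes in Qa2+ and Qa2- cells, with 5 above 0 and 3 below at each stage. Hmmr, of the same list, was left out by its mean and is named after its values were seen. It read 4.68 and 5.11 in miR-142-/- Qa2+ and Qa2- cells, and 6.56 and 6.01 in WT Qa2+ and Qa2- cells. Its genotype differences were -1.88 and -0.90, in the direction of Cd44. Mmp14, a membrane metalloprotease gene that sheds CD44, was 1.17 and 0.81 higher in miR-142-/-, opposite to Cd44. Mmp9, a secreted metalloprotease gene, differed by -0.65 in Qa2- cells and was below background in Qa2+ cells of both genotypes (5.34 and 5.51). Cd74, the invariant chain gene whose protein pairs with CD44, differed between stages by -1.09 in miR-142-/- and -1.05 in WT.

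Cd52, which encodes a very short GPI-anchored glycopeptide dense on lymphocytes, differed least between stages. It read 12.11 and 11.97 in miR-142-/- Qa2+ and Qa2- cells, and 12.49 and 12.38 in WT Qa2+ and Qa2- cells. Both miR-142-/- arrays were below both WT arrays, by 1.30-fold in Qa2+ and 1.33-fold in Qa2- cells, and the stages lay 1.10-fold apart in miR-142-/- and 1.07-fold in WT. Differences of that size or more in that direction between genotypes were seen in 10.3% and 6.98% of genes above background, and values this near the top of the scale may be compressed. Of 13 other GPI-anchored lymphocyte proteins listed, 9 had a value and 6 were above background on average. Cd48, a ligand of natural killer and T cell receptors, differed between genotypes by -0.75 (Qa2+) and -0.65 (Qa2-), whereas Nt5e, the gene of the ecto-nucleotidase CD73, differed by 0.64 and 1.31.

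Stage by genotype, the 9 genes thus differed in how the stage step compared. The step in miR-142-/- minus that in WT was at least 1.5-fold for 3 of 9 genes, Dapl1 (-2.27), Itm2a (0.91) and Ms4a6b (0.86), and for 428 of 12581 genes above background. It was 0.57 for Cd24a, 0.52 for Ms4a4b, 0.22 for Cd44, 0.15 for Ly6d, 0.04 for Cd52 and -0.30 for Ms4a4c. For Cd24a, Itm2a, Dapl1, Ms4a4c and Cd44 the miR-142-/- arrays lay closer together than the WT arrays, whereas for Ms4a4b, Ms4a6b, Ly6d and Cd52 they lay farther apart. With 1 array in each of the 4 groups, no residual is left to test any of these.

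**Figure D5:**
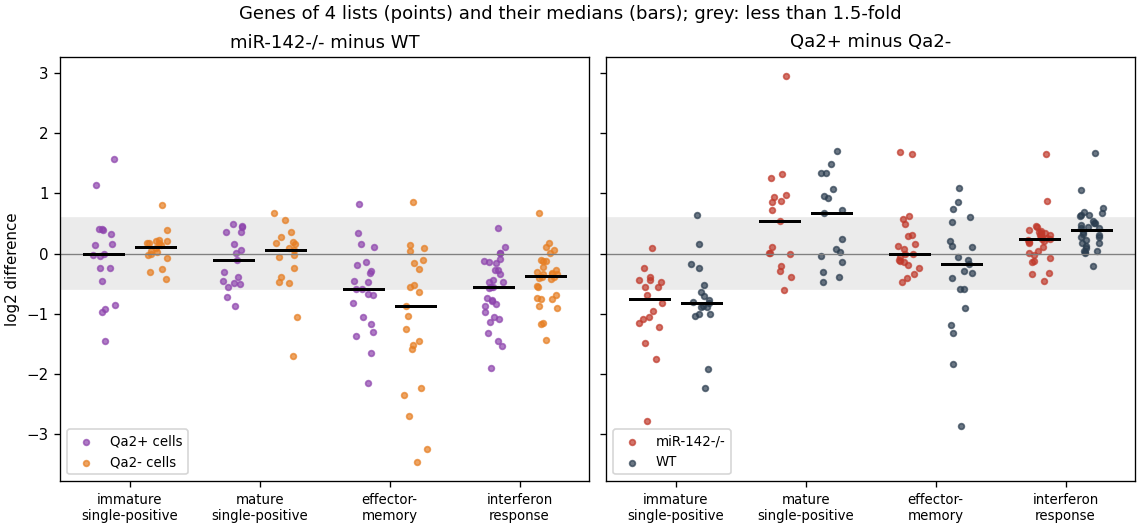
Log2 differences of the genes above background in 4 lists (points, scattered sideways for visibility) with list medians (bars), miR-142-/- minus WT on the left (purple Qa2+, orange Qa2- cells) and Qa2+ minus Qa2- on the right (red miR-142-/-, dark blue WT), the grey band marking less than 1.5-fold. The effector-memory medians lie at -0.59 and -0.88 between genotypes, and the immature and mature medians at -0.75 and 0.54 between stages in miR-142-/- and at -0.82 and 0.68 in WT.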

How the data were processed

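RNA from sorted thymocytes was hybridised to 4 arrays, 1 per group, each from a pool of mice. The authors deposited log2 expression values per probe set, and the tools listed are RMA and Partek, per the submitters' processing notes, which as used here list no version. RMA corrects background, puts arrays on 1 distribution and merges probes, which compresses small signals and hides shifts shared by all genes. From the 35557 probe sets, 21789 with 1 listed gene were kept, 1621 with several and 12147 with none named no gene, and 21698 probe sets matched a current gene record by Entrez ID (GRCm38.p6). Each of 19938 genes took its probe set with the highest mean, and 12581 exceeded background on that mean. Differences are miR-142-/- minus WT or Qa2+ minus Qa2-. Counts used 1.5-fold, with no test, since groups hold 1 array and the genes were chosen with earlier results of these data known, as were the lists. A fit that pools the genotypes as pairs was not used for that reason. The counting was run on simulated data with planted shifts above 1.5-fold and little noise, which checks the code and not the precision of these counts. Named genes were all 10 members, up to 4 genes of each list with the largest differences, genes that check the labels and the 5 genes nearest to Dapl1. Others were named because their count was small and were chosen after their values were seen. Alternatives were array centring, quantile normalization, averaging probe sets, other background thresholds and 2-fold. Python 3.11.15, pandas 2.3.3 and numpy 2.4.6 were used.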

Additional observations from a re-analysis of the deposited data

Results flagged for a closer look

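Dapl1 and Cd24a had genotype differences of opposite sign at the 2 stages, each larger than the standard deviation of receptor genes in the same comparison. For Dapl1, miR-142-/- minus WT was -0.74 at the Qa2+ stage but 1.53 at the Qa2- stage, and Dapl1 was picked for this. For Cd24a it was 0.41 in Qa2+ and -0.16 in Qa2- cells, both under 1.5-fold. Of genes above background, 8.85% and 23.7% were as far in the same direction. The difference between the stages was not tested for either gene, because each group has 1 array.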

How the results depend on the processing

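Centring each array on its median or quantile normalization moved the 45 differences of the 9 genes (4 comparisons and the difference of differences) by at most 0.10 and 0.12, under the standard deviation of receptor genes, with no sign changed. Averaging probe sets changed none, since each gene has 1. These settings, a background at the 99th percentile and no background filter kept the counts of genes at least 1.5-fold apart at 5 and 6 between genotypes in Qa2+ and Qa2- cells, 6 between stages in each genotype and 3 for the difference of differences. The lowest mean of the 9 genes was log2 8.23 (Cd44), above the 99th percentile threshold of 6.75. The background settings therefore could not change these counts. At 2-fold the counts were 2 and 3 between genotypes in Qa2+ and Qa2- cells, 4 and 5 between stages in miR-142-/- and WT, and 1, Dapl1, for the difference of differences, as follows from the stricter threshold. No paired analysis was run, and the replicate number, 1 in every group, only names the array. The labels give both stages of a genotype the same pool size and sexes, so each stage difference may lie within a pool. A stage fit over both genotypes was left out, not impossible. Leaving out an array removes its comparison. Signal near or below background on some arrays limits Ly6i, Mmp9, Ms4a4a, Lyz2, Epcam, Fasl, Gzmb, Klrd1 and S100a4, among others.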
